A study of Mus musculus with 6 samples.

Results

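The transcripts of 10 receptors, most of which guide leukocytes towards chemical signals, were followed in mouse BMDMs, macrophages that were raised in culture from bone marrow. The members were *Fpr1*, *Fpr2*, *C3ar1*, *C5ar1*, *C5ar2*, *Ptafr*, *Hcar2*, *Cmklr1*, *Ltb4r1* and *S1pr1*, picked by gene symbol as receptors for formyl peptides, anaphylatoxins, lipid mediators and metabolites, and all 10 were found once among the 55335 genes of the table. The BMDMs were grown from the marrow of *Cd177* wild-type mice for 7 days with 25 ng/ml macrophage colony-stimulating factor. They were then kept for 24 h with neutrophils taken magnetically from the injured mouse spinal cord at 3 days post-injury (dpi), which came from *Cd177* WT mice in 3 libraries and from *Cd177* KO mice in the other 3. CD177 is a surface protein of a neutrophil subset, and the deletion lay in the added neutrophils, not in the sequenced BMDMs. The cells were in direct contact and the macrophages were recovered by flow sorting, for which the gate is not given in the sources used here. The study used male mice, adult C57BL/6 of 8 weeks where bought as wild type, and the strain of the *Cd177* KO mice and the age of those that gave these neutrophils are not given. BMDMs kept without neutrophils were not analysed here. Neither the labels nor the methods say that the replicates were separate cultures or animals, and p-values then measure only the spread between these libraries.

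These receptors cross the membrane with 7 helices, and most of them signal through G proteins of the inhibitory class. Bound receptor releases G protein subunits that activate phosphoinositide 3-kinase and phospholipase C, which steer the actin cytoskeleton. G protein-coupled receptor kinases and arrestins then shut the receptor off. Macrophages use some of them to find bacteria, dying cells and sites of complement activation, and neutrophils carry several of the same receptors. *Fpr1* encodes the receptor for formylated peptides of bacteria and mitochondria, and *Fpr2* its relative, which also binds annexin A1, serum amyloid A and cathelicidin peptides. *C3ar1* and *C5ar1* encode the receptors of the complement fragments C3a and C5a, and *C5ar2* a second C5a receptor that does not couple to G proteins. *Ptafr* encodes the receptor of platelet-activating factor, *Ltb4r1* that of leukotriene B4, *S1pr1* that of sphingosine 1-phosphate, *Hcar2* that of nicotinic acid and the ketone body beta-hydroxybutyrate, and *Cmklr1* that of chemerin.

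*Fpr1* and *Fpr2* lie beside each other on chromosome 17, on opposite strands, with 3884 bases between their start sites in GENCODE M21 (GRCm38). Both were lower under the KO label, as given further on, so the 250 bases before each start site (RefSeq, GRCm38.p6) are shown, each read on the strand of its gene. Capitals mark matches to 2 of the 5 motifs searched on both strands, a GAS element (TTCNNNGAA) and a PU.1 core (GAGGAA, here on the opposite strand).
*Fpr1* (chr17:17883940-17884189, minus strand): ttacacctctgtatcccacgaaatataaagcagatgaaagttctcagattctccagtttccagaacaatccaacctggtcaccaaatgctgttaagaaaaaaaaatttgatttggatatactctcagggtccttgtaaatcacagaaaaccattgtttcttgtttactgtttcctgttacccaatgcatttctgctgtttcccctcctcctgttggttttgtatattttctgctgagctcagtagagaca
*Fpr2* (chr17:17887574-17887823, plus strand): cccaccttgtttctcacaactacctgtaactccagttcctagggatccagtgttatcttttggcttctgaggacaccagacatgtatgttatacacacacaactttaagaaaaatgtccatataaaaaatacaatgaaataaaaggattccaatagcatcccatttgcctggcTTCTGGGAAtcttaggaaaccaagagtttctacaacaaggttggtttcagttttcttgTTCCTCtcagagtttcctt
The *Fpr2* sequence held a GAS match starting 77 bases and a PU.1 core starting 19 bases before the start site, and the *Fpr1* sequence held none of the 5. Of 32851 promoter windows of this length, 7.02% held the GAS motif and 23.3% the PU.1 core. The AP-1 motif (TGANTCA) was in 6.75%, an ISRE (GAAA repeated after any 2 bases) in 2.98% and a kappaB pattern (GGG and CC with any 5 bases between) in 45.8% of the windows. Matches of different motifs were allowed to overlap. RefSeq entries gave 9 windows for 8 of the members, of which 5 held the PU.1 core, 3 the kappaB pattern, 1 the GAS motif, 1 the AP-1 motif and 0 the ISRE. These are matches of letters in short windows and do not show binding.

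Values were deposited as FPKM, the fragments of a gene divided by its length and by the library's total, which can be compared between genes. The 6 columns summed to between 302532 and 340717 FPKM. The table holds no read counts. Low values of FPKM times transcript length came in steps, and if that step is 1 fragment the depth was between 17782800 and 20417400 fragments per library. Between 40.2% and 43.7% of these low values were whole multiples to within 0.1 of a step, where chance gives 20%, so counts were not recovered. *Cd177* itself was higher under the KO label (1.79 to 2.28 FPKM against 0.309 to 0.544 FPKM). The BMDMs carried the intact gene, so it does not check their genotype, but it ran against the labels, and every direction below is given under the WT or KO label, that is, between libraries as labelled. Replicate 3 of both groups stood apart from replicates 1 and 2 on the second principal component, which held 13.5% of the variance. In such bulk RNA fewer cells of a type and less RNA per cell cannot be told apart.

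Under the WT label, *C3ar1* was the highest receptor with a median of 159 FPKM, followed by *C5ar1* with 81.9 FPKM and *S1pr1* with 50.4 FPKM. *Ptafr* and *Fpr2* came next with medians of 39.8 and 35.6 FPKM and overlapping ranges, and *Cmklr1* had 33.0 FPKM, every value below those of *Fpr2*. *Fpr1* with 12.9 FPKM, *Hcar2* with 6.20 FPKM, *Ltb4r1* with 1.07 FPKM and *C5ar2* with 0.0262 FPKM followed without overlapping ranges. Under the KO label, *C3ar1* again led with 180 FPKM, and by medians *Ptafr* came next with 52.1 FPKM, above *S1pr1* with 39.3 FPKM. *C5ar1* had a median of 16.5 FPKM, but its range spanned those of *Ptafr* and *S1pr1* and overlapped that of *Cmklr1*, and in KO replicate 3 it stood second. *Fpr2* and *Fpr1*, with medians of 4.55 and 3.31 FPKM, overlapped. *Ltb4r1* with 2.33 FPKM stood above *Hcar2* with 0.876 FPKM, which turns the order of this pair, and *C5ar2* was last with 0.0470 FPKM.

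**Figure D1:**
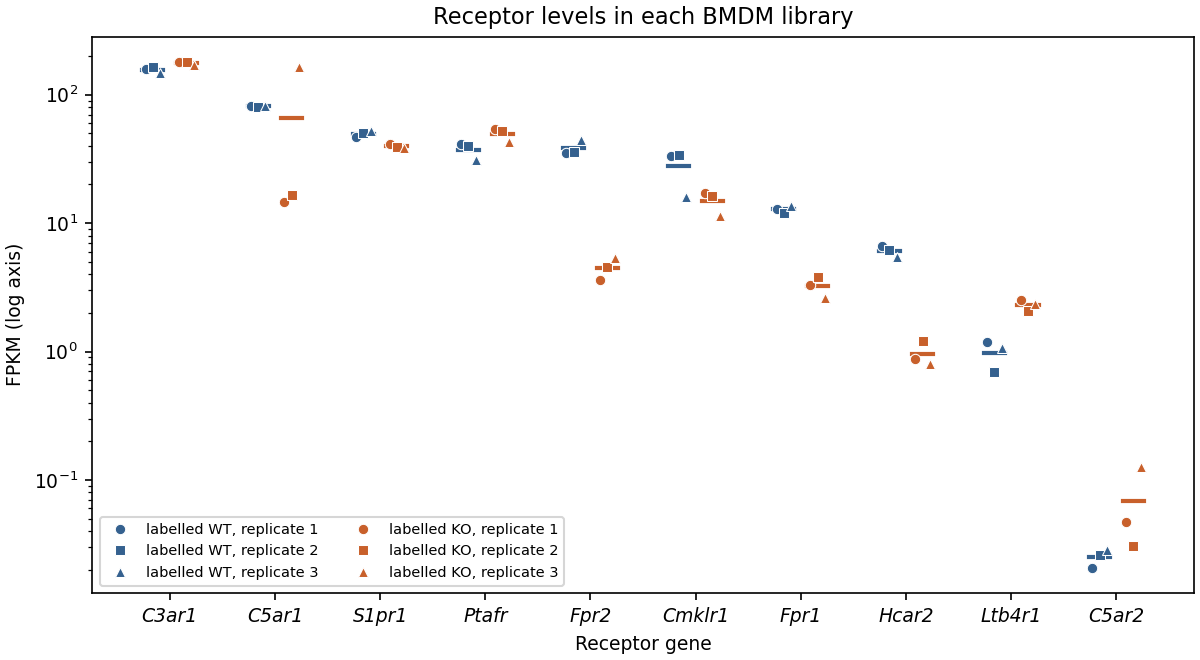
FPKM of each receptor (log axis) in the 3 libraries labelled WT (blue) and the 3 labelled KO (orange). Symbols mark the replicates and short bars the group means. Among the tested receptors, *Fpr2*, *Fpr1*, *Hcar2* and *S1pr1* are lower in every library labelled KO, and *Ltb4r1*, *C3ar1* and *Ptafr* are higher in every one. The differences of *C3ar1* and *Ptafr* did not pass the test. *C5ar1* of KO replicate 3, at 166 FPKM, lies far from the 14.6 and 16.5 FPKM of replicates 1 and 2.

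Of the 10 receptors, 9 reached a mean of 0.5 FPKM over the 6 libraries and were tested with limma, as log2 of FPKM plus 0.5, with Benjamini-Hochberg adjustment over the 13367 genes that did so. Adding 0.5 makes the change of a weakly expressed gene look smaller than it is. Under the KO label, 4 of the 9 (44.4%) were lower and 1 (11.1%) was higher at an adjusted p-value under 0.05. Of all tested genes, 10.5% were lower and 27.1% were higher by the same rule. In 7 of the 9 receptors no WT value lay among the KO values or the reverse, which held for 51.9% of all tested genes. Their median log2 fold change was -0.82, beside 0.19 over the 13367 genes. With median-of-ratios scaling between libraries the median of all genes was -0.01 and the share of calls that were higher fell from 72.0% to 47.7%, so the direction of a difference near 0.19 on the log2 scale depends on the scaling. Without replicate 3 of both groups, a choice made after seeing the data, 6 receptors were lower and 3 were higher, and over all 13367 genes 1943 were lower and 4518 higher, against 1408 and 3619 with all libraries.

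The formyl peptide receptors were both lower under the KO label. *Fpr2* (ENSMUSG00000052270, chromosome 17 from 17887824 to 17893952) measured 35.0, 35.6 and 44.7 FPKM under the WT label and 3.58, 4.55 and 5.35 FPKM under the KO label. Every KO value lay far below every WT value, and the group means were 38.4 ± 5.44 and 4.49 ± 0.889 FPKM (SD, n = 3 each), an 8.56-fold difference. The log2 fold change was -2.97 (SE 0.16, limma adjusted p = 3.09e-05), the lowest of the 9. *Fpr1* (ENSMUSG00000045551, chromosome 17 from 17876471 to 17883940) measured 12.9, 12.0 and 13.6 FPKM under the WT label and 3.31, 3.80 and 2.62 FPKM under the KO label. The groups did not overlap and the mean was 3.97-fold lower, with a log2 fold change of -1.85 (SE 0.13, limma adjusted p = 0.000118). Under each of the 16 alternatives both stayed lower with an adjusted p-value under 0.05, with log2 fold changes between -3.18 and -2.83 for *Fpr2* and between -2.06 and -1.68 for *Fpr1*.

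The ratio of the pair differed between the labels in every library. *Fpr1* stood at 0.370, 0.338 and 0.305 of the *Fpr2* level under the WT label and at 0.924, 0.835 and 0.490 under the KO label, so the levels were closer in every KO library. The log2 difference of *Fpr1* and *Fpr2* was larger by 1.12 under the KO label (exact permutation test, two-sided, p = 0.1, the smallest that 3 against 3 libraries can give). *Fpr2* shares sequence with its neighbours. Of the 50-base windows of its longest transcript, 37.2% also occur in transcripts of the *Gm5966* pseudogene, *Fpr3* or *Fpr1*, and *Fpr3* is annotated on the same strand from 28 bases after the start of *Fpr2*. Reads of these genes may thus be split, although *Fpr3* was listed at no more than 0.0438 FPKM in any library. In *Fpr1* only 0.0784% of the windows were shared. *Fpr-rs3*, *Fpr-rs4*, *Fpr-rs6* and *Fpr-rs7*, further relatives that are known mainly from the vomeronasal organ, were listed at 0 in all 6 libraries.

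*Hcar2* (ENSMUSG00000045502, chromosome 5 from 123863570 to 123865499), the metabolite receptor, was lower as well. It measured 6.61, 6.20 and 5.47 FPKM under the WT label and 0.876, 1.20 and 0.800 FPKM under the KO label. Values of the groups did not overlap, and the mean was 6.36-fold lower with a log2 fold change of -2.18 (SE 0.14, limma adjusted p = 6.43e-05). Its lactate-sensing relative *Hcar1* was between 0.0160 and 0.210 FPKM in all libraries and was not tested. The difference in *Hcar2* passed under all 16 alternatives, with log2 fold changes from -2.56 to -1.86. The smallest fall was that with pseudocount 1 and the largest that with pseudocount 0.1.

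**Figure D2:**
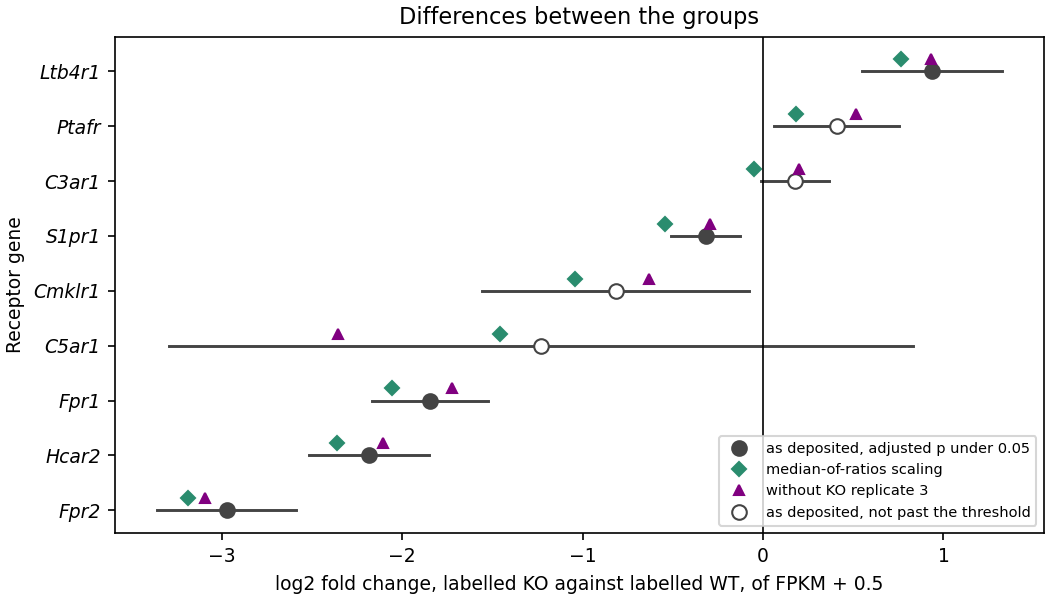
Log2 fold change of FPKM + 0.5, labelled KO against labelled WT, for the 9 tested receptors, with 95% confidence intervals from limma (lines). Filled circles have an adjusted p-value under 0.05, diamonds show median-of-ratios scaling and triangles the value without KO replicate 3. *Fpr2*, *Hcar2* and *Fpr1* lie between -2.97 and -1.85, *Ltb4r1* lies at 0.94, and *C5ar1* moves from -1.23 to -2.36 without KO replicate 3.

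The complement receptors gave no shared pattern. *C3ar1* (ENSMUSG00000040552, chromosome 6 from 122847138 to 122856161) measured 159, 164 and 146 FPKM under the WT label and 180, 180 and 171 FPKM under the KO label. Values of the groups did not overlap, but the log2 fold change of 0.18 (95% confidence interval -0.01 to 0.37) did not pass (limma adjusted p = 0.126). The sign turned with median-of-ratios and upper-quartile scaling, to -0.05 and -0.04, so no direction is given. Without replicate 3 of both groups the adjusted p-value of *C3ar1* was 0.0293 from limma, with a log2 fold change of 0.15.

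*C5ar1* (ENSMUSG00000049130, chromosome 7 from 16246743 to 16259540) had nearly equal values under the WT label, 81.9, 80.4 and 82.2 FPKM. Under the KO label it had 14.6 and 16.5 FPKM in replicates 1 and 2 and 166 FPKM in replicate 3. Replicates 1 and 2 thus lay below every WT library and replicate 3 above every WT library. Over all 6 libraries the log2 fold change was -1.23 with a 95% confidence interval from -3.29 to 0.83 (limma adjusted p = 0.306), so a difference was not shown, and the interval spans large ones in both directions. Without KO replicate 3 it was -2.36 (limma adjusted p = 7.67e-05), so a single library decides the call. Such a gap was rare. KO replicate 3 was at least 4-fold above both other libraries of its group, on the FPKM + 0.5 scale, in 13 of 13367 genes, *C5ar1* among them, and the other libraries stood as far above theirs in 6 to 12 genes. The 3 tested genes next to *C5ar1* did not share the gap, while the untested *C5ar2*, the nearest gene, was also highest in KO replicate 3, at the low values given below. *Dhx34* had 6.60, 7.06 and 6.16 FPKM, *Inafm1* 11.1, 11.5 and 14.8 FPKM and *Ccdc9* 5.47, 5.38 and 6.45 FPKM in KO replicates 1, 2 and 3. These 3 neighbours and the count of genes with such a gap were chosen after the value of KO replicate 3 was seen. GENCODE M21 lists 3 transcripts of *C5ar1* between 674 and 2540 bases long, and no values of single transcripts were analysed here. Why this library differed was not tested.

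**Figure D3:**
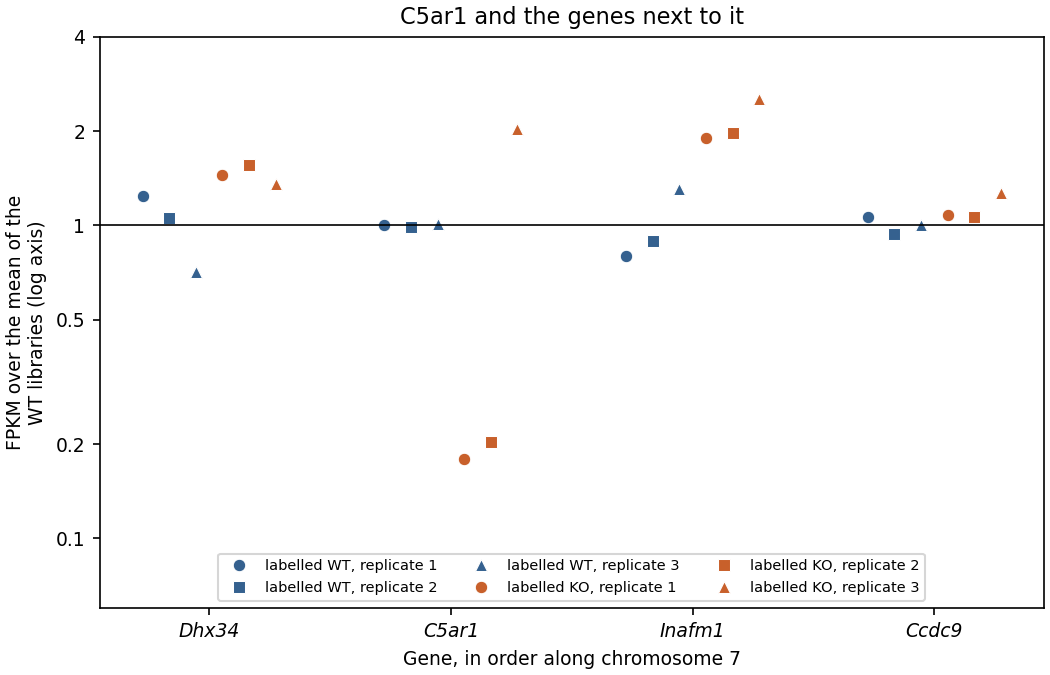
FPKM of *C5ar1* and of the 3 tested genes nearest to it on chromosome 7, divided by the mean of the 3 libraries labelled WT (log axis, 1 is the WT mean). Blue marks WT and orange KO libraries, with symbols for the replicates. *C5ar1* drops to 14.6 and 16.5 FPKM in KO replicates 1 and 2 and rises to 166 FPKM in replicate 3, while the 3 KO libraries stay close to each other in *Dhx34*, *Inafm1* and *Ccdc9*.

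*C5ar2* (ENSMUSG00000074361, chromosome 7 from 16234585 to 16244154, 2588 bases from *C5ar1*) was at the edge of detection. It measured 0.0208, 0.0262 and 0.0286 FPKM under the WT label and 0.0470, 0.0307 and 0.127 FPKM under the KO label. A step of 1 fragment would be worth 0.0143 to 0.0164 FPKM in its longest transcript of 3429 bases, so these values rest on very few fragments, it fell under the filter, and no fold change is given. The log2 difference of *C5ar1* and *C5ar2* averaged 7.29 under the WT label and 5.95 under the KO label (exact permutation test, two-sided, p = 0.4). With 0.5 added to such low values of *C5ar2*, this restates *C5ar1* and says nothing of *C5ar2*.

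Of the lipid mediator receptors, *Ltb4r1* (ENSMUSG00000046908, chromosome 14 from 55765962 to 55768494) was the receptor that rose. It measured 1.18, 0.693 and 1.07 FPKM under the WT label and 2.52, 2.07 and 2.33 FPKM under the KO label. Values of the groups did not overlap and the mean was 2.35-fold higher, with a log2 fold change of 0.94 (SE 0.16, limma adjusted p = 0.00466). It stayed higher with an adjusted p-value under 0.05 in the 16 alternatives, with log2 fold changes between 0.69 and 1.18. Its low-affinity relative *Ltb4r2* was listed between 0 and 0.173 FPKM and was not tested. Neutrophil markers were higher under the KO label too, with a summed level of 563 to 576 FPKM against 205 to 265 FPKM. Most of each sum came from *S100a8* and *S100a9*. Under the KO label *S100a8* had 94.0 to 112 FPKM against 56.7 to 81.3 FPKM, and *S100a9* 221 to 244 FPKM against 75.9 to 113 FPKM. The part of neutrophil RNA in *Ltb4r1* was not tested.

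*S1pr1* (ENSMUSG00000045092, chromosome 3 from 115710433 to 115715072) measured 47.0, 50.4 and 51.9 FPKM under the WT label and 41.7, 39.3 and 38.4 FPKM under the KO label. Values of the groups did not overlap, and the small fall passed the test with a log2 fold change of -0.32 (SE 0.08, limma adjusted p = 0.02). The call was lost when WT replicate 2 or KO replicate 1, 2 or 3 was left out (limma adjusted p = 0.0599, 0.0509, 0.0796 and 0.0631), with log2 fold changes between -0.35 and -0.29. With median-of-ratios and upper-quartile scaling the fall was larger, -0.55 and -0.53 (limma adjusted p = 0.00375 and 0.00566). The other sphingosine 1-phosphate receptors went their own ways. *S1pr3* was higher, with a log2 fold change of 0.69 (limma adjusted p = 0.00703). *S1pr2* had a log2 fold change of -0.15 without passing, and passed with median-of-ratios scaling (-0.37, limma adjusted p = 0.0164) and without WT replicate 3 (-0.22, limma adjusted p = 0.0464). *S1pr4* had 0.07 without passing and turned sign with the scaling, and *S1pr5* was listed at 0 throughout.

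*Ptafr* (ENSMUSG00000056529, chromosome 4 from 132564067 to 132582683) measured 41.2, 39.8 and 30.9 FPKM under the WT label and 54.0, 52.1 and 42.6 FPKM under the KO label. Values of the groups did not overlap, although the lowest KO value lay close to the highest WT value. The log2 fold change of 0.41 (95% confidence interval 0.06 to 0.75) did not pass after adjustment (limma adjusted p = 0.065). It was 0.18 with median-of-ratios scaling, and without KO replicate 3 the adjusted p-value was 0.0461 from limma, with a log2 fold change of 0.51. *Cmklr1* (ENSMUSG00000042190, chromosome 5 from 113612354 to 113650426) measured 33.0, 34.0 and 16.03 FPKM under the WT label and 17.2, 16.3 and 11.3 FPKM under the KO label. WT replicate 3 lay below KO replicates 1 and 2, so the groups overlapped. The log2 fold change was -0.82 (95% confidence interval -1.56 to -0.08, limma adjusted p = 0.0794). Without WT replicate 3 it was -1.16 (limma adjusted p = 0.00423), and with median-of-ratios scaling it was -1.04 (limma adjusted p = 0.0348). In both *Ptafr* and *Cmklr1*, replicate 3 was the lowest library of each group.

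Summed over the 10 receptors, the WT-labelled libraries held 418, 423 and 392 FPKM and the KO-labelled ones 318, 315 and 440 FPKM. KO replicate 3 was thus the highest of all, through *C5ar1*, which made up 37.6% of its sum against 4.59% and 5.24% in KO replicates 1 and 2. Without *C5ar1* the sums were 336, 343 and 310 FPKM under the WT label and 303, 299 and 275 FPKM under the KO label. *C3ar1* made up 37.3% to 38.7% of the sum of 10 under the WT label and 56.6%, 57.0% and 38.8% in KO replicates 1, 2 and 3. *Fpr2* went from between 8.37% and 11.4% to between 1.13% and 1.44% of the sum.

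Over 6835 genes that averaged 5 FPKM or more, the log2 profiles most like that of *Fpr2* over the 6 libraries, by the root mean square difference after each was centred on its mean, were those of *Rtp4* (0.10), *Bst1* (0.13) and *Hmox1* (0.15 on the log2 scale). *Rtp4*, a chaperone of G protein-coupled receptors that is induced by interferon, measured 31.2, 27.8 and 37.6 FPKM under the WT label and 3.35, 3.51 and 4.23 FPKM under the KO label. The nearest to *Hcar2* were *Il1rn* (0.10), *Grina* (0.11) and *Slfn5* (0.12), and the nearest to *Fpr1* were *Tgfbi* (0.13), *Cd86* (0.13) and *Serpinb9* (0.14 on the log2 scale). *Il1rn* encodes the interleukin 1 receptor antagonist and *Cd86* a costimulatory ligand for T cells. With 2 groups of 3 libraries, likeness mostly means a difference between the groups of the same size.

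Relatives of the members and other receptors for formyl peptides, lipids, metabolites and chemerin were described as a list of 28 genes. Of the 12 tested, 5 were higher and 3 were lower under the KO label at an adjusted p-value under 0.05, with a median log2 fold change of -0.04. By the same rule 27.1% of all tested genes were higher and 10.5% lower, with a median of 0.19. With median-of-ratios scaling 4 of the related receptors were higher and 5 lower, beside 2057 and 2259 of all tested genes. *Gpr84*, a receptor for medium-chain fatty acids, fell most, from 48.0, 47.0 and 45.9 FPKM under the WT label to 3.90, 3.85 and 3.86 FPKM under the KO label, with a log2 fold change of -3.44. *Gpr35* and *Ccrl2*, which binds chemerin without signalling, fell with log2 fold changes of -1.80 and -1.53 (limma adjusted p = 0.000728 and 0.000135). *Lpar5*, a receptor for lysophosphatidic acid, and *Gpr183*, which senses oxysterols, rose with log2 fold changes of 2.40 and 2.39, *Gpr183* from 1.19, 1.45 and 1.54 FPKM to 9.09, 8.84 and 10.3 FPKM. *Cysltr1*, the cysteinyl leukotriene receptor, rose with a log2 fold change of 1.26.

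The genes that make or break down the ligands of these receptors moved in both directions. Of 33 genes, 23 were tested, 8 were higher and 8 were lower under the KO label, with a median log2 fold change of 0.11. Of all tested genes, 27.1% were higher and 10.5% lower, with a median of 0.19. With median-of-ratios scaling 6 of the ligand genes were higher and 8 lower, beside 2057 and 2259 of all tested genes. Ligands of *Fpr2* were split. *Saa3* (serum amyloid A) measured 9.04, 8.28 and 13.8 FPKM under the WT label and 0.213, 0.336 and 0.224 FPKM under the KO label, a log2 fold change of -3.81. *Anxa1* (annexin A1) rose from 105, 109 and 136 FPKM to 308, 299 and 331 FPKM, a log2 fold change of 1.43, and *Camp* (cathelicidin), which is also among the neutrophil markers below, rose with 1.78. Of the complement genes tested here, *C3* and *Cfb* fell, while *Cfp* rose by much less. *Cfp*, properdin of the alternative pathway, rose from 172, 163 and 192 FPKM to 222, 228 and 268 FPKM, a log2 fold change of 0.44 (limma adjusted p = 0.0179), but with median-of-ratios scaling *Cfp* did not pass (0.22, limma adjusted p = 0.238), nor without WT replicate 1 or 2 (limma adjusted p = 0.0614 and 0.0598). *C3* fell from 118, 114 and 74.4 FPKM to 6.28, 6.45 and 5.27 FPKM, a log2 fold change of -3.96. *Cfb*, factor B of the alternative pathway, had 29.4, 29.8 and 27.9 FPKM under the WT label, and under the KO label it had 0.423 and 0.376 FPKM and was listed at 0 in replicate 3. The log2 fold change of *Cfb* was -5.32. *Hc*, which encodes C5, was listed at no more than 0.0536 FPKM and was not tested.

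Of the leukotriene B4 genes, *Alox5* and *Lta4h* were higher, *Alox5ap* did not pass, and *Cyp4f18*, which breaks it down in neutrophils, fell by 0.58 on the log2 scale (limma adjusted p = 0.0301). *Alox5* (5-lipoxygenase) rose from 0.224, 0.186 and 0.268 FPKM to 1.91, 1.71 and 1.79 FPKM, a log2 fold change of 1.67. *Lta4h*, which makes leukotriene B4, rose with a log2 fold change of 0.28 (limma adjusted p = 0.0342), near the median of all tested genes. With median-of-ratios scaling *Lta4h* had 0.064 and did not pass (limma adjusted p = 0.634), nor without WT replicate 1 or 2 or any 1 KO replicate. *Alox5ap* had 0.38 (limma adjusted p = 0.0751), and passed without WT replicate 3 (0.53, limma adjusted p = 0.00485). The *Cyp4f18* call was lost without WT replicate 2 or 3 or KO replicate 1 or 2 (limma adjusted p = 0.0548 to 0.0909). Among the genes of platelet-activating factor, *Lpcat2*, which makes it, rose with 0.74, while *Pla2g4a*, which releases its precursor and that of leukotrienes, and *Pla2g7*, which breaks it down, fell with -1.11 and -1.04 on the log2 scale. *Sphk1*, a kinase that makes sphingosine 1-phosphate, measured 3.87, 5.75 and 2.93 FPKM under the WT label and 0.935, 0.912 and 1.10 FPKM under the KO label, a log2 fold change of -1.62. *Plpp3*, a lipid phosphatase, fell with -1.72, while *Plpp1* and *Sgpp1* rose with 1.26 and 1.05. *Rarres2*, the gene of chemerin, was listed between 0.0498 and 0.783 FPKM and was not tested.

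Genes that carry or end the signal were described as a list. Of 40 genes, 39 were tested, of which 21 were higher and 2 were lower under the KO label, where 27.1% and 10.5% of all tested genes were, with a median log2 fold change of 0.45 beside 0.19. With median-of-ratios scaling 14 were higher and 5 lower, beside 2057 and 2259 of all tested genes. *Rgs18* and *Rgs10*, which switch off G protein alpha subunits, rose with log2 fold changes of 2.73 and 1.84, *Rgs18* from 0.791, 0.926 and 1.28 FPKM to 9.01, 8.47 and 10.8 FPKM. *Dock2*, an activator of Rac in leukocyte migration, rose from 6.52, 6.74 and 4.20 FPKM to 25.2, 24.7 and 19.6 FPKM, a log2 fold change of 1.92. *Rgs16* and *Gna15* were the genes that fell, with -0.75 and -0.54 on the log2 scale (limma adjusted p = 0.000508 and 0.00515). The part of neutrophil RNA in the genes of this list was not tested.

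**Figure D4:**
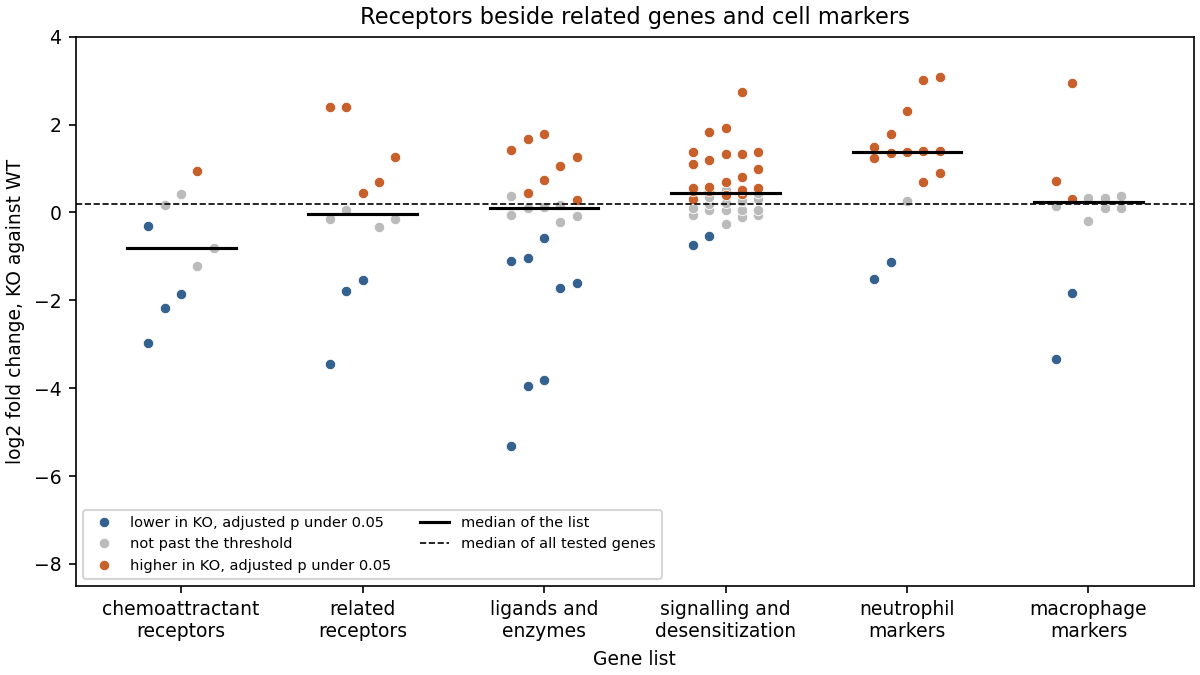
Log2 fold change, labelled KO against labelled WT, of each tested gene in 6 lists (points), with the list medians (bars) and the median of all tested genes, 0.19 (dashed line). Blue and orange points have an adjusted p-value under 0.05. The receptors have a median of -0.82, the related receptors of -0.04, the signalling genes of 0.45 and the neutrophil markers of 1.37.

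Markers of other cells moved between the groups. The counts below stand beside 27.1% of all tested genes higher and 10.5% lower under the KO label. Of 20 neutrophil markers, 15 were tested, 12 were higher and 2 were lower under the KO label, with the sums given beside *Ltb4r1*. The 2 that fell were *Hdc* and *Mmp8*, and *Ngp* and *Ltf*, granule proteins, rose with log2 fold changes of 3.02 and 3.09. *Ly6g*, a neutrophil surface protein, was listed at 0 under the WT label and at 0.660, 0.547 and 0.403 FPKM under the KO label. *Fpr1* and *Fpr2*, which neutrophils also express, were lower under the KO label and *Ltb4r1* was higher. The part of neutrophil RNA in these receptors, and in the ligand and enzyme genes above, was not tested. All 12 macrophage markers were tested and summed to between 6867 and 8227 FPKM under the WT label and between 7656 and 8354 FPKM under the KO label. Most of each sum was *Lyz2*, with 4573, 4462 and 5731 FPKM under the WT label and 5963, 5881 and 6588 FPKM under the KO label. The sums thus mainly follow that gene. Under the KO label 3 markers were higher (*Mrc1*, *Mertk* and *Adgre1*, of which only *Mrc1* passed with median-of-ratios scaling) and 2 were lower (*Cd14*, *Fcgr1*). *Mrc1* went from 28.3, 29.4 and 26.3 FPKM to 225, 223 and 213 FPKM, and *Cd14* from 935, 911 and 1182 FPKM to 93.7, 95.5 and 109 FPKM. *Csf1r*, the macrophage colony-stimulating factor receptor, was between 232 and 293 FPKM in all 6 libraries. B cell markers were carried by *Ighm* and *Cd79b*, both higher (2 of 6 tested). The 5 endothelial or stromal markers summed to 299 to 449 FPKM under the WT label and 334 to 389 FPKM under the KO label, nearly all of it collagen transcripts, with 2 of the 4 tested lower (*Col3a1*, *Pdgfrb*). *S1pr1* and *Cmklr1* are known from such cells too, and the part of stromal RNA in them was not tested. Of the mast cell or basophil markers *Mcpt8* alone was tested and was lower, and of the spinal cord markers *Tubb3* was higher and *Mbp* did not pass. T or NK cell markers summed to at most 1.24 FPKM and dendritic cell markers to at most 0.590 FPKM in any library.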

How the data were processed

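The table the authors deposited gives FPKM for 55335 mouse Ensembl identifiers, and its 6 columns were matched to samples by title. The labels list fastp 0.17.1, HISAT2 2.1.0, DESeq2 1.18.1 and R 3.4.3. The counter, annotation and genome build are not given in the sources used here, and the labels and methods name different library kits and sequencers. FPKM is relative to each library's total, so large changes in abundant genes shift all others. Of the identifiers, 55154 matched GENCODE M21 (GRCm38), which gave symbols and positions. A value of 0 was treated as listed, not as absence.

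After removing genes that averaged under 0.5 FPKM, limma 3.58.1 (R 4.3.3, trended eBayes, two-sided, no covariate) was run on log2(FPKM + 0.5), with adjustment over 13367 genes. The test was checked on simulated data. No count test was run. Differences between paired receptors used exact permutation tests (scipy 1.17.1). The lists of ligand genes, related receptors, signalling genes and cell markers came from general knowledge, and the members and lists were chosen with earlier results of these data known. Named genes are the members, the 3 largest rises and falls past the threshold per list, ligands and their enzymes, fixed markers, and the 3 nearest profiles of the 3 members with the largest differences. *Ltb4r2*, *Hcar1*, *Mbp*, the *Fpr* and *S1pr* relatives and the neighbours of *C5ar1* were named after their values were seen. Figures used matplotlib 3.10.9. Alternatives were pseudocounts, filters, scalings, a robust prior, a replicate block and left-out libraries.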

Additional observations from a re-analysis of the deposited data

How the results depend on the processing

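The calls of *Fpr1*, *Fpr2*, *Hcar2* and *Ltb4r1* kept direction and threshold under all 16 alternatives. When libraries were left out in turn, 3 to 5 receptors were lower under the KO label instead of 4, and 1 to 2 were higher instead of 1. In the same settings 1047 to 1717 of the 13367 tested genes were lower, against 1408 with all libraries. Between 2442 and 4228 were higher, against 3619. Without replicate 3 of both groups, added after seeing the data, 3 receptors were higher, beside 4518 of all tested genes. WT and KO libraries carry the same replicate numbers, and no source says that these mark a batch. Same-numbered libraries deviated together with correlations of 0.12, 0.04 and 0.26, and not every library correlated best with its own number. With the replicate block 2 receptors were higher (*Ptafr* added) and 5 lower (*Cmklr1* added), and 5934 instead of 5027 genes passed. The sign turned with median-of-ratios and upper-quartile scaling for *C3ar1* (-0.052 and -0.038) and *Csf1r* (-0.12 and -0.10), and these shift all genes by construction. With these scalings 2057 and 2122 genes were higher, against 3619, and 2259 and 2152 lower, against 1408. Related receptors that were lower went from 3 to 5 with both, and lower signalling genes from 2 to 5 and 4. Requiring 1 FPKM on average left 1 of 2 lower neutrophil markers, and higher macrophage markers went from 3 to between 1 and 5 over the alternatives. *S1pr4*, which did not pass, turned too (-0.048 and -0.039, -0.14 with quantile normalization, -0.074 without replicate 3 of both groups, and -0.14 to 0.24 as libraries were left out in turn). For 51 named genes other than the receptors, 756 of 814 values kept direction and side of the threshold, 43 lost it, 8 gained it and 7 turned. The *Fpr1* and *Fpr2* difference ranged from 0.97 to 1.37 as libraries were left out in turn. For *C5ar1* and *C5ar2*, where it restates *C5ar1*, it lay between -2.39 and -0.76, and quantile normalization gave no value because *C5ar2* was not among the normalized genes. Depth limits what can be said of *C5ar2*, which fell under both filters.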
